A study of Mus musculus with 6 samples.

Results

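The nuclear genes that control the fusion, division, DNA and turnover of mitochondria were followed in mouse eggs held at metaphase II, where they await the sperm. The set holds 10 genes: Mfn1, Mfn2, Opa1, Dnm1l, Fis1, Mff, Tfam, Polg, Pink1 and Ppargc1a. They were picked by name for their roles, with earlier results of these data known. All 10 were found among the 24254 named rows of the deposited table. Eggs of 3 libraries were matured in vitro (IVM), and eggs of the other 3 in vivo (IVO). The sources used here do not state strain, age, hormone treatment, culture medium or eggs per library, and no label says whether libraries of a group came from separate animals, so a p-value here weighs a difference against the spread between libraries only, which may be technical. Values are FPKM, fragments per kilobase of transcript scaled to the size of the library. Being per length, they allow a rough comparison between genes, which overlapping genes and the unstated processing may affect.

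Mitochondria form a network that fuses and divides. Mitofusins on the outer membrane and Opa1 on the inner membrane join organelles, whereas the GTPase Drp1, the product of Dnm1l, is brought to the outer membrane by adaptors such as Mff and Fis1 and pinches them apart. An egg carries more copies of mitochondrial DNA than other cells do, hands them to the embryo, and depends on the mitochondria it has stored, because replication of this DNA is largely at rest in the early mouse embryo.

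Mff was by far the most abundant of these transcripts in IVM eggs and was higher there than in IVO eggs, while its partner Dnm1l was lower. The mitofusins went opposite ways: Mfn2 was higher and Mfn1 lower in IVM eggs. Opa1 was lower, and Tfam, which packages mitochondrial DNA, was higher. Polg, which encodes the catalytic subunit of the mitochondrial DNA polymerase, did not pass the test, and Fis1, Pink1 and Ppargc1a were too low to be tested.

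**Figure D1:**
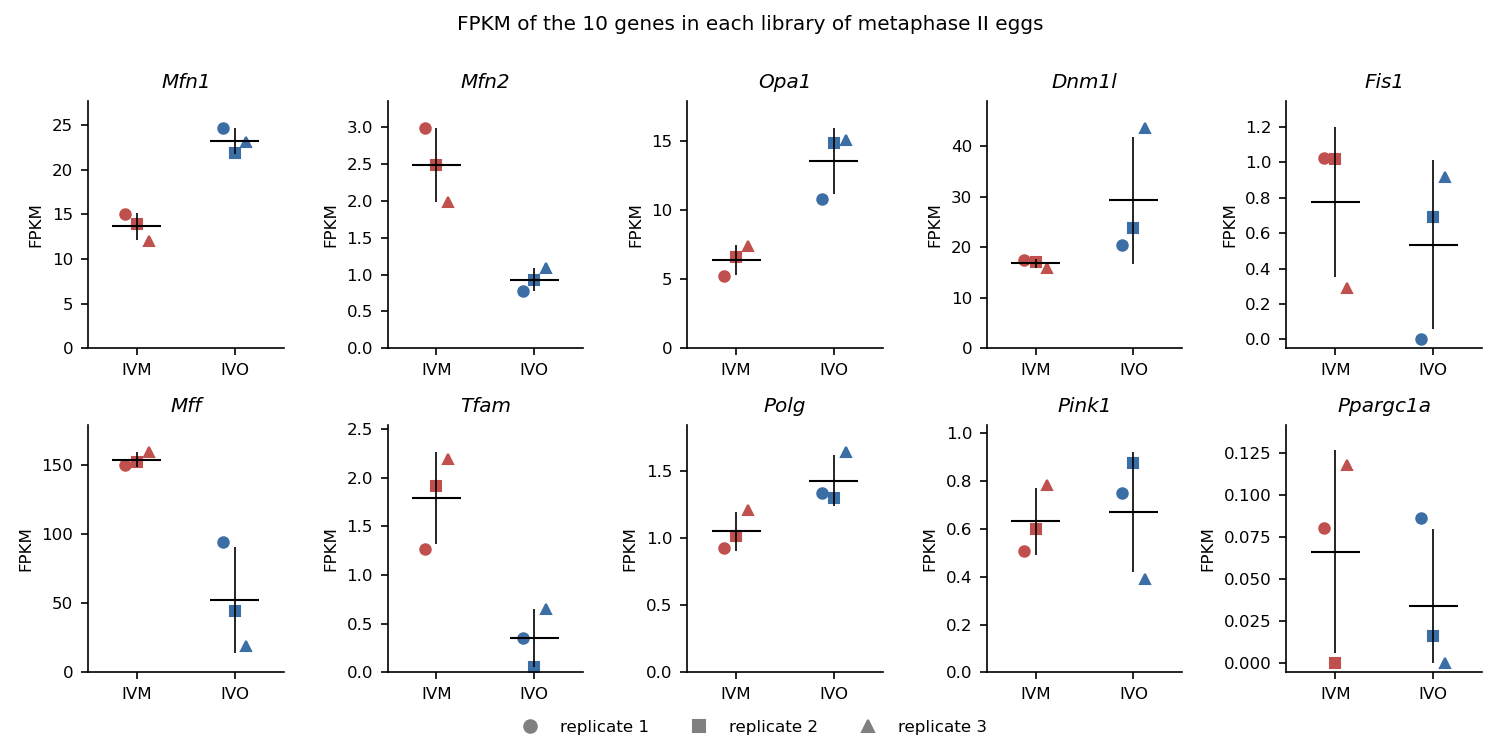
FPKM of each gene (y axis, linear, a separate scale for each panel) in the 3 IVM libraries (left, red) and the 3 IVO libraries (right, blue). Points are libraries, marked by replicate number, with the mean as a horizontal line and ± 1 SD, stopped at 0, as a vertical line; the 3 IVM libraries of Mff sit between 150.2 and 159.8 FPKM, above all IVO libraries, which spread between 19.1 and 94.5 FPKM.

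The same 4 genes had the highest means in both groups, and the order below them differed. In IVM eggs Mff averaged 154 ± 5.11 FPKM, followed by Dnm1l at 16.8 ± 0.917, Mfn1 at 13.7 ± 1.53 and Opa1 at 6.41 ± 1.09 (SD, n = 3), and none of these neighbours overlapped. Below them came Mfn2 and Tfam, whose libraries overlapped, then Polg and Fis1, which also overlapped. Pink1, whose libraries lay within the range of Fis1, came next by mean, and Ppargc1a was at the bottom. In IVO eggs Mff averaged 52.7 ± 38.4 FPKM, Dnm1l 29.3 ± 12.6, Mfn1 23.2 ± 1.43 and Opa1 13.6 ± 2.40 (SD, n = 3), and the libraries of Mff, Dnm1l and Mfn1 overlapped, so these 3 had no clear order. Tfam, sixth by mean in IVM eggs, was ninth by mean in IVO eggs. Its IVO libraries overlapped those of Fis1, Pink1 and Ppargc1a, so that rank was not clear.

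The promoters of these genes are shown for 3 of the genes that passed the test, since the factors GABP and NRF1 are known to act on many nuclear genes of mitochondria. Each sequence is a RefSeq promoter of build GRCm38.p6, 300 bases long, printed 5′ to 3′ along the gene. For Mfn1 and Opa1 most of it lies before the start of the gene as given below. For Tfam most of it lies within the gene as given below. The capitals mark a match to CCGGAAG, the core recognized by GABP (also called NRF-2), in Mfn1 and Tfam, and a match to the NRF1 core in Opa1. The sites are chr3:32529232-32529531 on the plus strand for Mfn1, chr16:29579084-29579383 on the plus strand for Opa1 and chr10:71237995-71238294 on the minus strand for Tfam.
Mfn1: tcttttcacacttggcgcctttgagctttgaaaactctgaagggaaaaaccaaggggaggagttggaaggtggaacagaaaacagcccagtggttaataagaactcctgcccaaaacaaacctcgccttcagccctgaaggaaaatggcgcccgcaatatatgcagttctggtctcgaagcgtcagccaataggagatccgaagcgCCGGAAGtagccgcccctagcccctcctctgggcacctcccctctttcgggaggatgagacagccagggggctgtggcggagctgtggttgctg
Opa1: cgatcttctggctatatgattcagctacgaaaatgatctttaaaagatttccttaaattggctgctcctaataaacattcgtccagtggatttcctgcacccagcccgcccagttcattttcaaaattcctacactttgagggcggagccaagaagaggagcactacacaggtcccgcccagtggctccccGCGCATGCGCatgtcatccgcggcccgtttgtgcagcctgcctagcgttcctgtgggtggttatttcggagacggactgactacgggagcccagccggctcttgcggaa
Tfam: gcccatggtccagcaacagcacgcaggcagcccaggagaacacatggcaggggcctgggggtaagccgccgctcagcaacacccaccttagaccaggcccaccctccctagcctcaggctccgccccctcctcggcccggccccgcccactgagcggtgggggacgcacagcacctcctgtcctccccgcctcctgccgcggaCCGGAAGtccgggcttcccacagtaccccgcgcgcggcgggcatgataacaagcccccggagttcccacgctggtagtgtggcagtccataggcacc
All 10 genes had at least 1 promoter in the RefSeq table, and 5 motifs were searched on both strands. CCGGAAG was in a promoter of 5 genes (Dnm1l, Fis1, Mfn1, Polg and Tfam), against 20.3% of 5927 tested genes with a promoter and 8.86% of all promoters of this length. The NRF1 core was in those of Opa1 and Pink1, against 12.9% of tested genes and 4.60% of all promoters. AAGGTCA (the ERR receptors), TGACGTCA (CREB) and the YY1 core were in none of the 10, against 3.41%, 3.80% and 3.09% of tested genes and 4.72%, 1.79% and 0.986% of all promoters. No promoter of the set held more than 1 kind of motif. Mff and Mfn2, both higher in IVM eggs, held none of the 5 in any of their promoters, whereas Tfam, also higher, held CCGGAAG. A match describes the letters only.

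Of the mitofusins, the outer membrane GTPases that tether and fuse neighbouring mitochondria, Mfn1 was the major transcript in both groups. Mfn1 (ENSMUSG00000027668.13, GRCm38 chromosome 3, 32529465 to 32579239) had 15.1, 13.9 and 12.0 FPKM in IVM eggs, against 24.7, 21.8 and 23.1 FPKM in IVO eggs. All IVM libraries were below all IVO libraries, and the mean in IVM eggs was 58.8% of that in IVO eggs. The log2 difference, on the log2(FPKM + 1) scale as are all those that follow, was -0.73 (SE 0.126, limma with Benjamini-Hochberg adjusted p = 0.0020). This scale understates the change of low genes. With the upper quartile of the libraries set equal the difference was -0.46 and the call was lost (limma, adjusted p = 0.0955, the highest of 0.00151 to 0.0955 over the alternatives).

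Mfn2, which also ties mitochondria to the endoplasmic reticulum, moved the other way. Mfn2 (ENSMUSG00000029020.13, chromosome 4, 147873599 to 147904704) had 2.99, 2.48 and 1.98 FPKM in IVM eggs, against 0.783, 0.930 and 1.09 FPKM in IVO eggs. The groups did not overlap, and the mean was 2.66 times as high in IVM eggs. The log2 difference was 0.84 (SE 0.197, limma, adjusted p = 0.00869), and the call was lost under quantile normalization, where it was 0.55 (adjusted p = 0.0568, the highest of 0.00332 to 0.0568 over the alternatives). As a share of both mitofusins, Mfn1 made up 83.4%, 84.8% and 85.9% of their summed FPKM in IVM libraries, against 96.9%, 95.9% and 95.5% in IVO libraries. A share within a library does not depend on scaling between libraries, and these shares did not overlap.

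The inner membrane GTPase gene Opa1, which fuses inner membranes and shapes cristae, was lower in IVM eggs. Opa1 (ENSMUSG00000038084.16, chromosome 16, 29579334 to 29654884) had 5.23, 6.64 and 7.38 FPKM in IVM eggs, against 10.8, 14.9 and 15.1 FPKM in IVO eggs. The groups did not overlap, and the mean in IVM eggs was 47.2% of that in IVO eggs. The log2 difference was -0.97 (SE 0.181, limma, adjusted p = 0.00278), and the call held in every alternative run for Opa1. The ratio of Opa1 to Mfn1 FPKM was 0.347, 0.478 and 0.613 in IVM libraries and 0.439, 0.680 and 0.653 in IVO libraries, which overlapped.

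On the side of division, the adaptor gene Mff had the largest difference of the 7 tested genes on the log2(FPKM + 1) scale, while by the fold of the means, and with 0.1 or 0.01 added, Tfam had a larger one. Mff (ENSMUSG00000026150.14, chromosome 1, 82724890 to 82752394) encodes the main outer membrane receptor for Drp1. It had 150.2, 152.2 and 159.8 FPKM in IVM eggs, against 94.5, 44.5 and 19.1 FPKM in IVO eggs. Every IVM library was above every IVO library, and the IVO libraries were far apart while the IVM libraries lay close together. The mean was 2.92 times as high in IVM eggs, and the log2 difference was 1.80 (SE 0.444, limma, adjusted p = 0.0109). Without IVO replicate 3, the lowest library, the difference was 1.23 (adjusted p = 0.00792), and without IVO replicate 1, the highest of its group, it was 2.36 (adjusted p = 0.000433). Over all alternatives adjusted p was 0.000117 to 0.0470. Mff overlaps C430014B12Rik on the opposite strand by 280 bases and the intronic gene Gm28941 on its own strand by 1017 bases.

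Dnm1l, the gene of Drp1 itself, was lower in IVM eggs, with a call that many settings ended. Dnm1l (ENSMUSG00000022789.15, chromosome 16, 16312230 to 16358959) had 17.6, 17.1 and 15.8 FPKM in IVM eggs, against 20.4, 23.7 and 43.6 FPKM in IVO eggs. The groups did not overlap, although IVO replicate 3 stood well above the other two of its group. The mean in IVM eggs was 57.5% of that in IVO eggs, and the log2 difference was -0.69 (SE 0.242, limma, adjusted p = 0.0482). The call was lost without IVM replicate 1, 2 or 3 or IVO replicate 2 (limma, adjusted p = 0.0930, 0.0974, 0.139 and 0.0599), and it held without IVO replicate 3, where the difference was -0.37 (adjusted p = 0.0392). It was also lost under each of 3 other scalings (adjusted p = 0.0670 to 0.199 over them, and 0.0147 to 0.199 over all alternatives). An antisense gene, Gm49521, overlaps Dnm1l by 9757 bases, and the sources used here do not state whether strand was used, so reads from both cannot be told apart.

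Fis1, another outer membrane protein gene linked to division, was near the bottom of the scale. Fis1 (ENSMUSG00000019054.13, chromosome 5, 136953275 to 136966234) had 1.03, 1.02 and 0.287 FPKM in IVM eggs, against a listed 0, 0.690 and 0.915 FPKM in IVO eggs. The groups overlapped, and with a mean under 1 FPKM it was not tested. Mff made up 89.0%, 89.3% and 90.9% of the summed FPKM of the 3 division genes in IVM libraries, against 82.2%, 64.6% and 30.0% in IVO libraries.

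The IVO spread of Mff was wide for a transcript of its level. The highest IVO library exceeded the lowest by 2.25 on the log2(FPKM + 1) scale, and 6 of 3287 genes with a mean of at least 10 FPKM, Mff included, had a range at least that wide (0.183%). In the IVM libraries its range was 0.0895, and 81.7% of these genes had a range at least as wide. Dnm1l ranged over 1.06 in IVO libraries, a width reached by 3.26% of these genes, and over 0.144 in IVM libraries, reached by 62.2%. The limma fit takes a shared variance for both groups of a gene, so for Mff and Dnm1l it pooled unlike spreads.

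**Figure D2:**
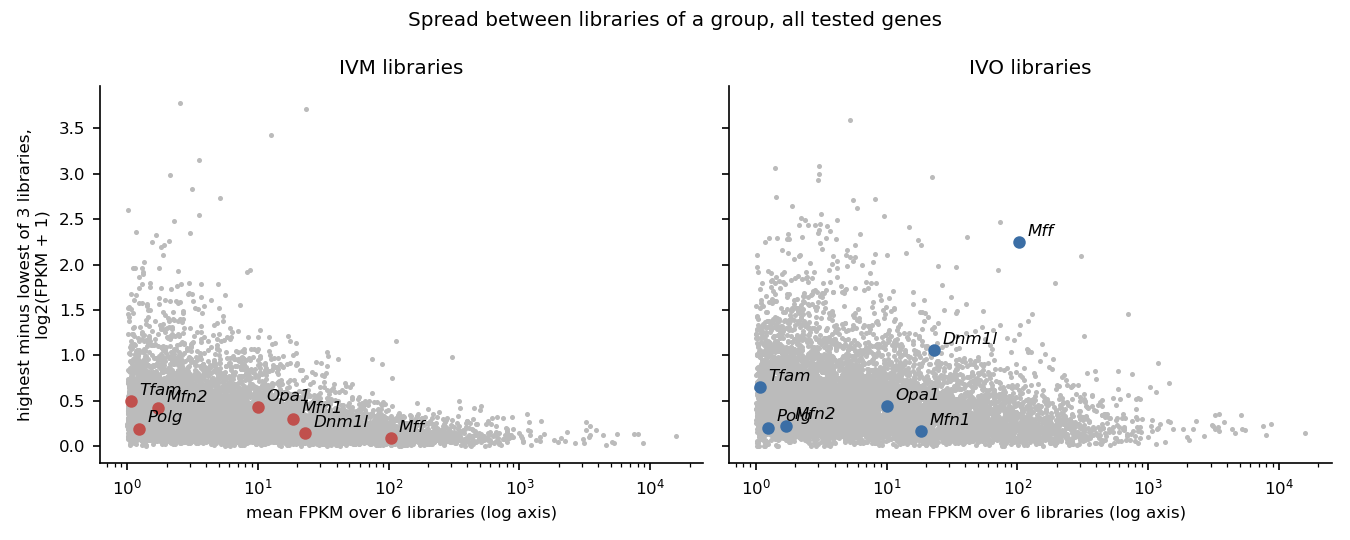
Highest minus lowest value of the 3 libraries of a group on the log2(FPKM + 1) scale (y axis) against mean FPKM over the 6 libraries (x axis, log scale), for IVM libraries (left) and IVO libraries (right). Grey points are the 7746 tested genes and coloured points the 7 tested genes of the set; Mff lies at 0.0895 in IVM and at 2.25 in IVO, above nearly all genes of its level.

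Ratios within a library put these opposite movements side by side, and the choice of members for a ratio was made with these data known, so they carry no test. Mff FPKM was 8.55, 8.89 and 10.1 times Dnm1l FPKM in IVM libraries, against 4.62, 1.88 and 0.437 times in IVO libraries. Only in IVO replicate 3, of the 6 libraries, was Dnm1l above Mff. Mfn1 FPKM was 5.04, 5.60 and 6.08 times Mfn2 FPKM in IVM libraries, against 31.6, 23.5 and 21.3 times in IVO libraries.

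The summed fusion genes (Mfn1, Mfn2 and Opa1) were 0.138, 0.135 and 0.122 of the summed division genes (Dnm1l, Fis1 and Mff) in IVM libraries, against 0.316, 0.546 and 0.618 in IVO libraries. The groups did not overlap. With Mfn1 and Mff, the most abundant gene of each sum by mean, left out together, the groups overlapped. The ratio was then 0.442, 0.503 and 0.582 in IVM libraries and 0.568, 0.647 and 0.363 in IVO libraries. Neither gene was left out alone, so the part of each in the difference was not tested.

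**Figure D3:**
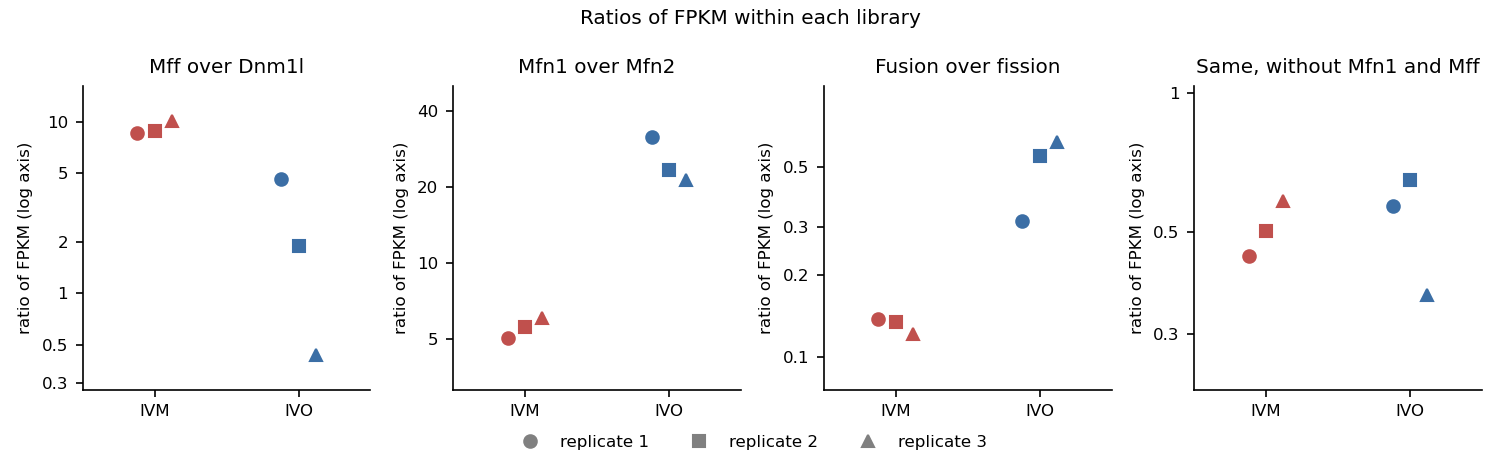
Ratios of FPKM within each library (y axis, log scale, a separate scale for each panel) for IVM (left, red) and IVO (right, blue), marked by replicate number. Fusion over fission is the sum of Mfn1, Mfn2 and Opa1 over the sum of Dnm1l, Fis1 and Mff; the first 3 panels separate the groups, and the last, without Mfn1 and Mff, does not.

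Of the genes for mitochondrial DNA itself, Tfam was higher in IVM eggs and low in both groups. Tfam (ENSMUSG00000003923.14, chromosome 10, 71225464 to 71238280) encodes the protein that wraps this DNA and helps start its transcription. It had 1.27, 1.92 and 2.20 FPKM in IVM eggs, against 0.349, 0.0536 and 0.655 FPKM in IVO eggs. The groups did not overlap, and the mean was 5.09 times as high in IVM eggs. The log2 difference was 1.06 (SE 0.242, limma, adjusted p = 0.00785), and its size depended on the added constant, with 2.31 when 0.1 was added and 2.83 when 0.01 was added (adjusted p = 0.0214 and 0.0399, in a range of 0.00118 to 0.0399 over the alternatives). Tfam reached the filter of a mean of 1 FPKM through the IVM libraries, as did in part Mfn2, whose IVO mean was also below 1.

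Polg had its 3 IVM libraries below its 3 IVO libraries, by a margin that did not pass the test. Polg (ENSMUSG00000039176.17, chromosome 7, 79446231 to 79466362) had 0.930, 1.01 and 1.21 FPKM in IVM eggs, against 1.34, 1.30 and 1.64 FPKM in IVO eggs. The log2 difference was -0.24 (SE 0.187, limma, adjusted p = 0.332), and under quantile normalization it was -0.59 and passed (adjusted p = 0.0300, the lowest of 0.0300 to 0.808 over the alternatives). Fanci, on the opposite strand, overlaps Polg by 4034 bases, and the deposited locus of Polg spans both genes, so their reads may not be separate.

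The genes of damage sensing and of new mitochondria were barely detected. Pink1, the kinase that marks damaged mitochondria for removal (ENSMUSG00000028756.12, chromosome 4, 138313409 to 138326307), had 0.507, 0.601 and 0.785 FPKM in IVM eggs, against 0.750, 0.875 and 0.391 FPKM in IVO eggs. Ppargc1a, which encodes the coactivator PGC-1α of mitochondrial biogenesis (ENSMUSG00000029167.13, chromosome 5, 51454250 to 51567726), had 0.0806, a listed 0 and 0.118 FPKM in IVM eggs, against 0.0862, 0.0158 and a listed 0 FPKM in IVO eggs. Groups overlapped for both. With no filter on low values, adjusted p was 0.931 for Pink1, 0.665 for Ppargc1a and 0.642 for Fis1 (limma), and a difference was not detectable at these levels.

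In all, 7 of the 10 genes reached a mean of 1 FPKM and were tested. Of these 7, 3 were higher in IVM (Mff, Mfn2 and Tfam), 3 were lower (Mfn1, Opa1 and Dnm1l) and 1 did not pass. Among all 7746 tested genes 20.6% were higher, 20.4% lower and 41.0% called in either direction (limma, adjusted p under 0.05). Groups did not overlap for any of the 7 tested genes, against 53.5% of all tested genes, 25.8% with IVM above and 27.7% with IVM below. The set was chosen with earlier results of these data known, so its counts beside these shares are descriptive and carry no test. Tfam and in part Mfn2 were among the tested genes through their IVM libraries. The median log2 difference was -0.24 over the 7 and -0.02 over all tested genes. The authors' deposited table called the same 6 genes at q under 0.05, with q = 0.000248 for Mfn1, Mfn2, Opa1, Dnm1l and Mff and q = 0.00047 for Tfam, where 22.4% of 16479 genes above 0 were called.

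**Figure D4:**
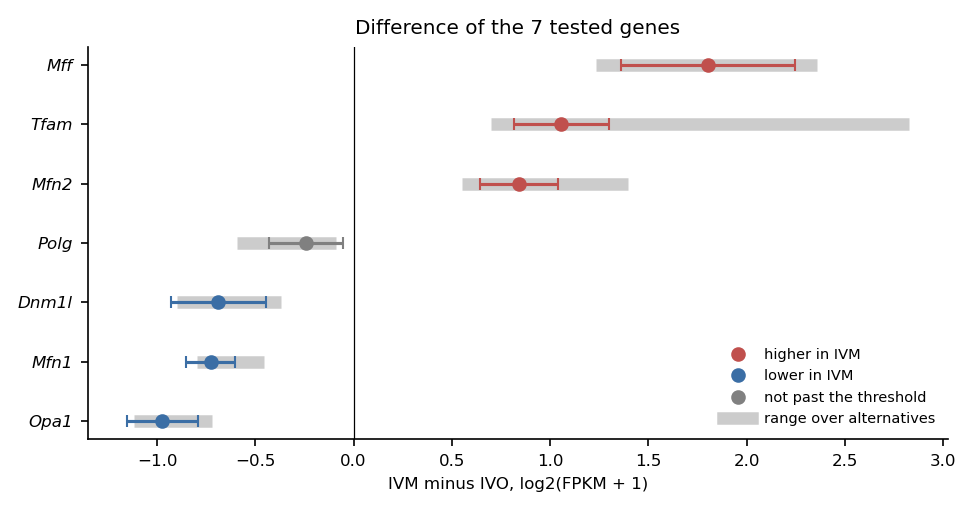
Difference IVM minus IVO on the log2(FPKM + 1) scale (x axis) for the 7 tested genes (y axis), as points with ± 1 SE from limma. Grey bands are the lowest and highest difference over the alternatives, which include other added constants; Mff, Tfam and Mfn2 lie right of 0 and Dnm1l, Mfn1 and Opa1 left of 0 in all of them.

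Genes of the same pathways outside the set were read in 4 lists. Together 110 of their genes were in the table and 71 were tested, of which 12 were higher and 14 lower in IVM. That is 36.6% called, near the 41.0% of all tested genes. Among 36 further genes of fusion, division, transport and cristae, 23 were tested, with 7 higher and 2 lower (39.1% called; median log2 difference 0.0073). Mtfr1l, a relative of the mitochondrial fission regulators, had 8.04 ± 0.756 FPKM in IVM eggs and 1.02 ± 0.0906 in IVO eggs (SD, n = 3; log2 difference 2.16, limma, adjusted p = 4.27e-05). The cristae junction genes Immt and Chchd3 also rose, with log2 differences of 1.20 and 1.06, while Trak1, an adaptor that couples mitochondria to kinesin, fell by 1.03. Chchd3 averaged 2.00 ± 0.480 FPKM in IVM libraries and 0.463 ± 0.358 FPKM in IVO libraries (SD, n = 3) and reached the filter through the IVM libraries. Its log2 difference was 2.15 when 0.1 was added and 2.55 when 0.01 was added. Mtfr2 was the most abundant of this list, at 190.5 ± 12.1 FPKM in IVM and 202.7 ± 29.1 in IVO, and did not pass (adjusted p = 0.584), with a sign that turned under each of 3 other scalings.

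Among 30 genes of mitochondrial DNA replication, transcription and nucleotide supply, 19 were tested, with 3 higher and 1 lower (21.1% called, against 41.0% of all tested genes; median log2 difference 0.024). Endog, a mitochondrial nuclease gene, had 2.98 ± 1.75 FPKM in IVM and 0.299 ± 0.199 in IVO, and Slc25a4, which encodes an exchanger of ADP for ATP, had 4.20 ± 1.63 FPKM in IVM eggs and 0.870 ± 0.787 FPKM in IVO eggs (SD, n = 3 each). Both reached the filter through the IVM libraries, where they are high, and their IVO means were below 1. Tk2, the mitochondrial thymidine kinase gene, rose by a log2 difference of 0.79, with its call lost without IVM replicate 2 or 3 and without IVO replicate 2 or 3. Slc25a33, a carrier of pyrimidine nucleotides, fell to 0.791 ± 0.162 FPKM in IVM, against 2.56 ± 0.155 in IVO, and reached the filter through the IVO libraries. Rrm2b, a ribonucleotide reductase subunit gene and the most abundant of the list, had 331 ± 4.63 FPKM in IVM libraries and 319 ± 56.7 FPKM in IVO libraries (adjusted p = 0.679).

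Of 18 regulators of mitochondrial biogenesis 11 were tested, with 0 higher and 4 lower in IVM (36.4% called, near the 41.0% of all tested genes; median log2 difference -0.16). At an unadjusted p under 0.05 limma gave 1 higher, and the authors' deposited table gave 2 higher at q under 0.05. Crebbp, Gabpb1, Rb1 and Ppard fell, with log2 differences of -0.73, -0.72, -0.67 and -0.36. Crebbp averaged 0.992 ± 0.170 FPKM in IVM eggs and 2.30 ± 0.319 in IVO eggs (SD, n = 3). It reached the filter in part through the IVO libraries. Gabpb1 encodes a subunit of GABP, whose core motif is capitalized above, and had 9.11 ± 1.80 FPKM in IVM eggs and 15.6 ± 2.28 FPKM in IVO eggs (SD, n = 3). All 4 calls were lost with the upper quartile set equal, where 2 genes of the list were higher and 0 lower. Of 27 mitophagy genes 19 were tested, with 2 higher and 7 lower (47.4% called, against 41.0% of all tested genes; median log2 difference -0.10). With upper quartiles set equal this list had 4 higher and 1 lower, so its balance depended on the scaling. Map1lc3a, an LC3 gene of the autophagosome, had 19.3 ± 2.90 FPKM in IVM and 2.39 ± 1.55 in IVO, and Bnip3l, a mitophagy receptor gene, had 7.59 ± 0.834 FPKM in IVM and 3.16 ± 0.588 in IVO. Bcl2l13, another receptor, was at 17.8 ± 1.77 FPKM in IVM eggs and 46.0 ± 0.996 FPKM in IVO eggs, and Usp30, a deubiquitinase of the outer membrane that opposes Parkin, was at 22.6 ± 4.47 FPKM in IVM eggs and 37.0 ± 2.22 FPKM in IVO eggs. Nbr1, an autophagy receptor gene and the most abundant of the list, fell by a log2 difference of 0.46. The calls of Usp30 and Nbr1 were lost with upper quartiles set equal, where the log2 differences were -0.43 and -0.18 (limma, adjusted p = 0.0832 and 0.502, the highest over their alternatives, with 0.00314 and 0.00276 the lowest).

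**Figure D5:**
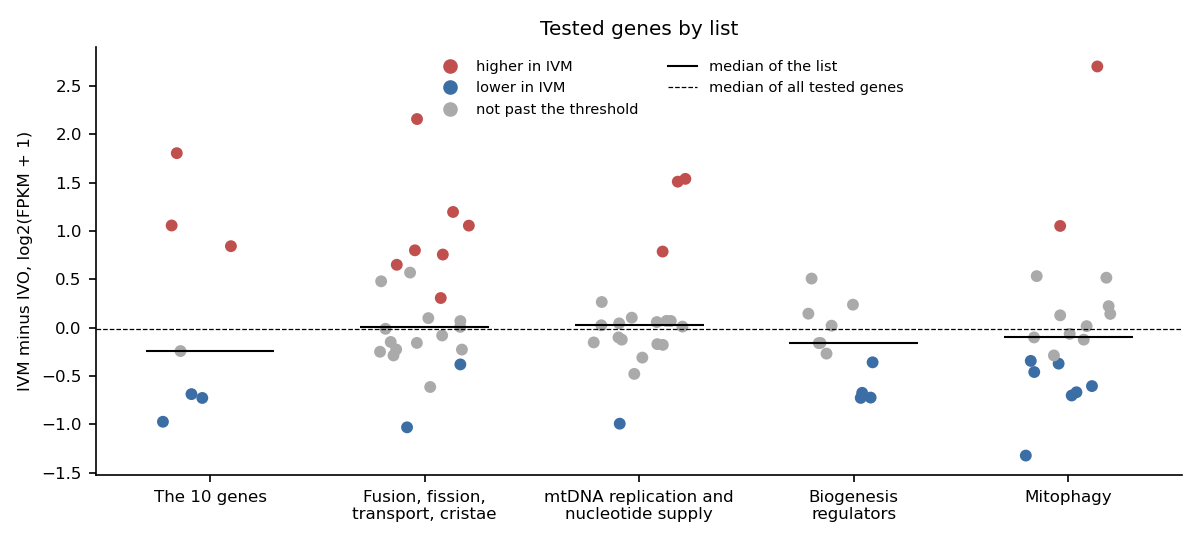
Difference IVM minus IVO on the log2(FPKM + 1) scale (y axis) for each tested gene of the set and of the 4 pathway lists (x axis), coloured by call. Solid lines are list medians, between -0.24 and 0.024, and the dashed line is the median of all tested genes at -0.02.

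Cytoplasmic polyadenylation, by which eggs lengthen the tails of stored messages, acts through short U-rich elements near the end of the message. TTTTAT or TTTTAAT, searched on the sense strand in the last 100 bases of 1 GENCODE transcript per gene, was present in Mfn1 and Ppargc1a, 2 of the 10 genes, and in 24.1% of 6988 tested genes with a 3′ UTR that long. The Mfn1 site is chr3:32579164-32579193 of GRCm38 on the plus strand, with the element in capitals.
Mfn1 site: tttacaaaacatTTTTATaagtatgcaagc
The polyadenylation signal AATAAA or ATTAAA was within the last 40 bases in 9 of the 10, with Opa1 the exception, and in 80.8% of these tested genes. The annotated end may not be the end used in the egg.

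Summed FPKM was 353438 to 364983 over the IVM libraries and 394233 to 402054 over the IVO libraries. Relative to IVM replicate 1, the other 5 had rough depths of 0.779 to 0.914, read from the commonest step of low values. That step was held by 131 to 212 genes of the 1263 to 2074 compared, so these depths are uncertain. Rescaling moved smaller differences: the median over all tested genes was -0.02 as deposited, 0.0971 with equal sums and 0.22 with equal upper quartiles, and the calls were 1595 higher and 1583 lower as deposited, 1949 higher and 1167 lower with equal sums, and 2128 higher and 606 lower with equal upper quartiles. Marker genes show egg RNA in all libraries, with 12 of 12 oocyte markers at a mean of at least 1 FPKM and sums of 16863 to 17351 FPKM in IVM and 11734 to 14126 in IVO, with 8 genes higher and 1 lower. Of 18 cumulus and granulosa markers 9 reached that level, Areg was at 0 throughout, and sums were 28.4 to 53.4 FPKM in IVM and 25.7 to 58.7 in IVO, with 1 gene higher and 3 lower. Of 11 oviduct markers 3 reached it, led by Cdh1 and Cldn4 and with Pax8 at 0, with sums of 221.5 to 248.8 in IVM and 264.8 to 283.8 in IVO, and 1 gene was higher and 2 lower. Of 14 stroma, vessel and blood markers 2 did, with sums of 37.2 to 38.4 in IVM and 39.9 to 41.2 in IVO, and limma called 0 in either direction, against 1 lower at an unadjusted p under 0.05 and 1 lower by the authors' deposited q-values. Over all tested genes 20.6% were higher and 20.4% lower. As deposited, oocyte sums were thus higher in IVM, and oviduct and stroma sums lower, with no overlap of the groups. The oviduct and stroma sums rest on few genes, led by Cdh1 and Cldn4 and by Pecam1 and Kdr. They may therefore not measure such cells, and whether the egg itself supplies these transcripts was not tested. Summed FPKM over all genes was also lower in IVM, and the marker sums were not rescaled for this. The part of other cells in the results for the 6 called genes was not tested. In bulk libraries fewer cells of a type and less RNA per cell cannot be told apart.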

How the data were processed

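RNA of mouse metaphase II eggs was sequenced in 3 IVM and 3 IVO libraries. The deposited table holds FPKM for each gene in each library, per the file headers. It also holds the authors' p-values and q-values, between the groups and between single libraries, and the last of these were not used, since 1 library a side has no replicate spread. The sources used here name no aligner, counting tool, annotation or strandedness. The submitters' processing notes name mm9, yet 99.4% of the 23130 symbols known to GENCODE M21 lay at the gene of that name in GRCm38, so GRCm38 coordinates are printed. A spreadsheet had turned 27 symbols into dates, and 26 were restored by position. The authors' log2 ratios were not used, because 1941 of the values for IVM against IVO had become error text. Total reads are unknown.

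Genes with a mean of at least 1 FPKM (7746) were compared by a two-sided limma test (version 3.58.1, R 4.3.3) of log2(FPKM + 1) whose prior variance followed mean level, and p-values were adjusted over all of them by Benjamini-Hochberg, with a threshold of 0.05. The procedure was tested on simulated data. The members and lists were chosen with earlier results of these data known. All members are named, and from each pathway list up to 4 called genes with the largest difference and the most abundant tested gene. Alternatives covered the added constant, filter, scaling, variance model, replicate block, threshold, the authors' q-values and each library left out.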

Additional observations from a re-analysis of the deposited data

How the results depend on the processing

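The directions of all 7 tested members held in each alternative that could test them. Of the 3 higher and 3 lower members, 1 was higher with a filter at a mean of 5 FPKM, where Mfn2, Tfam and Polg were not tested, and 1 was lower with upper quartiles set equal; the lower count was 2 to 3 and the higher count 3 with each library left out. Of the 12 higher and 14 lower genes of the pathway lists, 4 were higher with the filter at 5 FPKM, 3 lower with upper quartiles set equal and 9 lower at adjusted p under 0.01. Over all genes, 835 were higher with the filter at 5 FPKM and 606 lower with upper quartiles set equal, and 1019 were higher and 1009 lower at adjusted p under 0.01. Mtfr2, not called, turned to 0.0589 with equal sums, 0.20 with upper quartiles and 0.12 under quantile normalization. It ranged from -0.17 to 0.0291 with a library left out. Rrm2b, not called, ranged from -0.0748 to 0.18 with a library left out. It was 0.21 with equal sums, 0.35 with upper quartiles and 0.24 under quantile normalization. The fusion over division ratio, IVM minus IVO, was -0.362, and -0.0174 without Mfn1 and Mff. The cause was not tested for any of these.

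No label says whether the replicate numbers pair the libraries. Deviations of same-numbered libraries from their group means correlated across genes at 0.0599 to 0.0900, and each library correlated best with its own number. These correlations are weak, come from the data and not the design, and do not settle whether libraries were paired. With a replicate block, 3 members were higher and 3 lower, 13 and 15 genes of the pathway lists, and 1626 and 1558 of all genes. Low FPKM limits Fis1, Pink1 and Ppargc1a, for which a difference was not detectable at this depth.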

Other observations

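The other 5 genes whose IVO libraries spread at least as widely as those of Mff, among genes with a mean of at least 10 FPKM, were picked after their values were seen. They were Cpox, Oog1, Tmem74, Dppa5a and Rpl32. Their order over the IVO libraries was not that of Mff. Cpox, a haem synthesis gene, had 17.8, 18.4 and 14.2 FPKM in IVM and 41.3, 4.41 and 36.4 in IVO, and was lowest in IVO replicate 2. Oog1, a gene of the oogenesin family, had 39.7, 78.0 and 72.4 FPKM in IVM and 92.3, 137.8 and 24.1 in IVO, and Rpl32, a ribosomal protein gene, had 18.7, 28.4 and 26.3 in IVM and 12.0, 15.9 and 2.51 in IVO. Tmem74, a transmembrane protein gene, had 17.5, 13.7 and 11.3 FPKM in IVM and 14.8, 27.6 and 4.36 in IVO. Oog1, Rpl32 and Tmem74 were lowest in IVO replicate 3, as Mff was. Dppa5a, a gene of pluripotent cells, had 66.3, 100.9 and 76.7 FPKM in IVM and a listed 0, 0.698 and 3.95 in IVO, and was highest in IVO replicate 3. Oog1 and Rpl32 have close copies, so reads shared with these may make the values uncertain.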
